A study of Mus musculus with 6 samples.

Results

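The effect of adding the Apc580D allele to Trp53 loss was measured in organoids of the mouse fallopian tube (oviduct), by setting the array of the culture with Apc580D and Trp53 loss (called Apc/Trp53) against the array of the culture with Trp53 loss alone (called Trp53 loss). Genes were included where a probe was well above background on at least 1 of these 2 arrays, which held for 14463 of the 23787 genes that could be named. The pair makes up 2 of the 6 arrays analysed, and 1 further array, of Trp53flox/flox organoids carrying the empty vector pLKO.1 (called control), served as a check on the reference. All 3 cultures were of female origin and were sampled before subcutaneous inoculation. Total RNA (0.2 µg) was labelled with Cy3 and hybridised to 1 one-colour Agilent array for each culture. The medium of every culture held EGF (50 ng/ml), R-spondin1 (250 ng/ml), Noggin (100 ng/ml), the kinase inhibitor Y27632 (10 µM), the Notch ligand Jagged-1 (1 µM) and the GSK3 inhibitor CHIR-99021 (2.5 µM), so that the Trp53 loss and control cultures also received Wnt-activating agents. How Trp53 was lost, how many mice each culture came from and whether a culture was 1 clone are not stated in the labels. With 1 array in each group there is no replicate check and no test, and every difference below is between these arrays and cannot be told apart from a difference between any 2 cultures.

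Apc is the scaffold of the destruction complex, in which casein kinase 1 and GSK3 mark beta-catenin for breakdown. When the complex fails, beta-catenin enters the nucleus and works with TCF/LEF factors to switch on target genes, among them inhibitors that act back on the pathway at the cell surface (Notum, Znrf3, Rnf43, Apcdd1, Dkk and Wif proteins) or in the cytoplasm (Axin2, Nkd1, Nkd2). In the oviduct the Wnt pathway acts in the progenitor and secretory cells of the epithelium.

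Levels are log2 signals relative to the 75th percentile of the array, and a difference of 1 on this scale is 2-fold. Apc/Trp53 was at least 2-fold higher than Trp53 loss for 775 genes (5.36% of 14463) and at least 2-fold lower for 761 (5.26%), while 12927 genes (89.4%) lay within 2-fold. The median difference over all genes was 0.02. Of the higher genes 268 differed at least 4-fold and 92 at least 8-fold, and of the lower genes 275 and 145. A gene dim on 1 of the arrays has only a bound on its fold, given below as "at least". Such genes made up 342 of the higher and 276 of the lower ones, and the bound still reached 2-fold for 124 and 164 of them. Among 5258 genes with more than 1 probe, the median SD of the difference between the probes of a gene was 0.14. The 2 arrays lay in the same row of 1 slide and control lay in the other row, and between 45.4% and 51.0% of the probes were well above background on the 6 arrays.

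**Figure D1:**
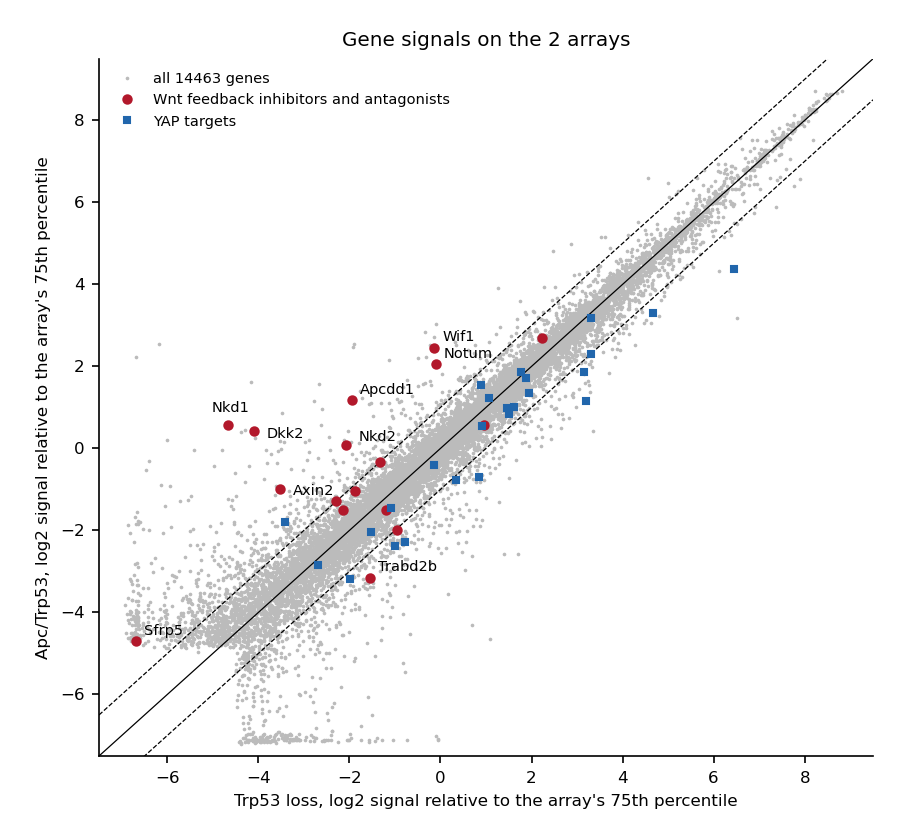
Signals of 14463 genes on the Trp53 loss array (horizontal axis) and the Apc/Trp53 array (vertical axis), both as log2 signal relative to the array's 75th percentile. The solid line marks equal signals and the dashed lines mark 2-fold. Most members of the Wnt feedback list (circles) lie above the solid line, and most YAP targets (squares) lie below it.

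The genes that Apc580D and Trp53 loss name were examined first. Trp53 was at 0.89 in control, -6.59 in Trp53 loss and -3.57 in Apc/Trp53. Its signal in Trp53 loss did not clear the background limit, and Apc/Trp53 stood 22.0-fold below control and at least 2.0-fold above Trp53 loss, so the 2 cultures did not have equal Trp53 signals. Its single probe's position relative to the altered exons is not stated in the labels. Apc was at -4.01 in control, -4.60 in Trp53 loss and -4.10 in Apc/Trp53, close to the background limit on each array, and its 1 probe is no check of the allele. Ctnnb1, the gene of beta-catenin, was at 1.72, 1.59 and 1.14 on these arrays, and was 1.37-fold lower in Apc/Trp53 than in Trp53 loss over 2 probes.

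Epithelial identity was shared by the 3 cultures. All 6 epithelial markers were well above background on each array, and their summed signal on the log2 scale was 8.99 in control, 8.61 in Trp53 loss and 8.57 in Apc/Trp53. Of 7 fibroblast and muscle markers 1 (Acta2) was well above background on each array. Among 6 leukocyte markers 3 (Cd3e, Cd68 and Csf1r) were well above background on each array, but Ptprc and Adgre1 were not on any of them. Of 4 mesothelial markers 2 (Msln and Upk3b) were well above background on each array. The summed secretory markers were at 4.27, 2.78 and 4.59 in control, Trp53 loss and Apc/Trp53, and the summed multiciliated markers at 2.02, 0.15 and -0.20. A sum follows its brightest members, and the secretory markers did not move together. From Trp53 loss to Apc/Trp53, Ovgp1 went from 1.31 to 2.96, Msx1 from 1.27 to 3.92 and Lypd2 from -4.21 to -1.90. Pax8 was at -0.03 and -0.09, and Wt1 at -0.11 and -7.01. These are whole cultures, so that fewer cells of a type and less RNA per cell cannot be told apart.

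Inhibitors and antagonists of Wnt signalling were the list with the largest median among the 44 lists examined. Of 29 genes 17 were measured, and 9 of them were higher in Apc/Trp53 by 2-fold or more and 2 lower, with a median difference of 1.00, against 5.36%, 5.26% and 0.02 over all genes. Against control the same 17 genes gave 9 higher and 1 lower with a median of 1.55, where 8.17% of 14598 genes were higher, 9.58% were lower and the median was 0.07. These shares over all genes are the comparison for the list counts below. Without any filter on dim probes the median of the list turned to -0.22, since 12 members that were dim on both arrays then entered. In that setting the median over all 23772 genes was -0.17.

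Among the inhibitors inside the cell, Nkd1, which binds Dishevelled, was at 0.58 in Apc/Trp53, -4.66 in Trp53 loss and -5.13 in control. Only Apc/Trp53 of these arrays was well above background, and it was at least 35.4-fold above Trp53 loss. Its relative Nkd2 was at 0.09 in Apc/Trp53, -2.08 in Trp53 loss and -2.07 in control, at least 3.65-fold apart from Trp53 loss. That bound is a mean over 2 probes that disagreed, with an SD of 1.85 between their log2 differences. Axin2, the inducible scaffold of the destruction complex, was at -0.99, -3.52 and -3.59 on the same arrays. Trp53 loss and control were nearly equal for Axin2, and Apc/Trp53 was at least 3.55-fold above Trp53 loss over 2 probes. The SD between the log2 differences of these probes was 0.59.

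Secreted and membrane antagonists were higher too. Dkk2, a ligand of the Wnt co-receptors Lrp5 and Lrp6, was at 0.41 in Apc/Trp53, -4.09 in Trp53 loss and -2.94 in control, which made it 22.6-fold higher than in Trp53 loss and 10.3-fold higher than in control. Apcdd1, a membrane glycoprotein that binds Wnt and Lrp5, was at 1.18, -1.94 and -1.84, an 8.69-fold difference over 3 probes. For both genes the Apc/Trp53 array stood above both references. Wif1, which binds Wnt ligands outside the cell, was at 2.46 in Apc/Trp53, -0.13 in Trp53 loss and 0.15 in control, 6.04-fold above Trp53 loss. Notum, the enzyme that removes the palmitoleate group from Wnt proteins, was at 2.05, -0.11 and -0.60. That is a 4.47-fold difference over 2 probes, with an SD of 0.62 between their log2 differences. Here too both references lay close together and below Apc/Trp53.

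The remaining members were nearer to a reference or to the background limit, or were lower. Dkk3 was at -1.29 in Apc/Trp53, -2.29 in Trp53 loss and -0.53 in control, so that it was 2.0-fold above Trp53 loss but 1.69-fold below control. Sfrp5 was well above background on the Apc/Trp53 array alone of the 3, at -4.70, close to the limit, and its bound gives no fold. The E3 ligase genes Znrf3 and Rnf43, which remove Frizzled receptors, were 1.76-fold and 1.38-fold higher and thus within 2-fold. The 2 members at least 2-fold lower were Trabd2b, a protease of Wnt proteins, at -3.15 in Apc/Trp53, -1.55 in Trp53 loss and -2.99 in control, and Kremen1, a Dkk receptor, at -1.98, -0.97 and -0.60. For Trabd2b it was the Trp53 loss array that stood apart, since Apc/Trp53 and control lay within 1.12-fold of each other. Kremen1 in Apc/Trp53 was 2.02-fold below Trp53 loss, or at least 1.79-fold with dim signals bounded, and 2.6-fold below control.

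**Figure D2:**
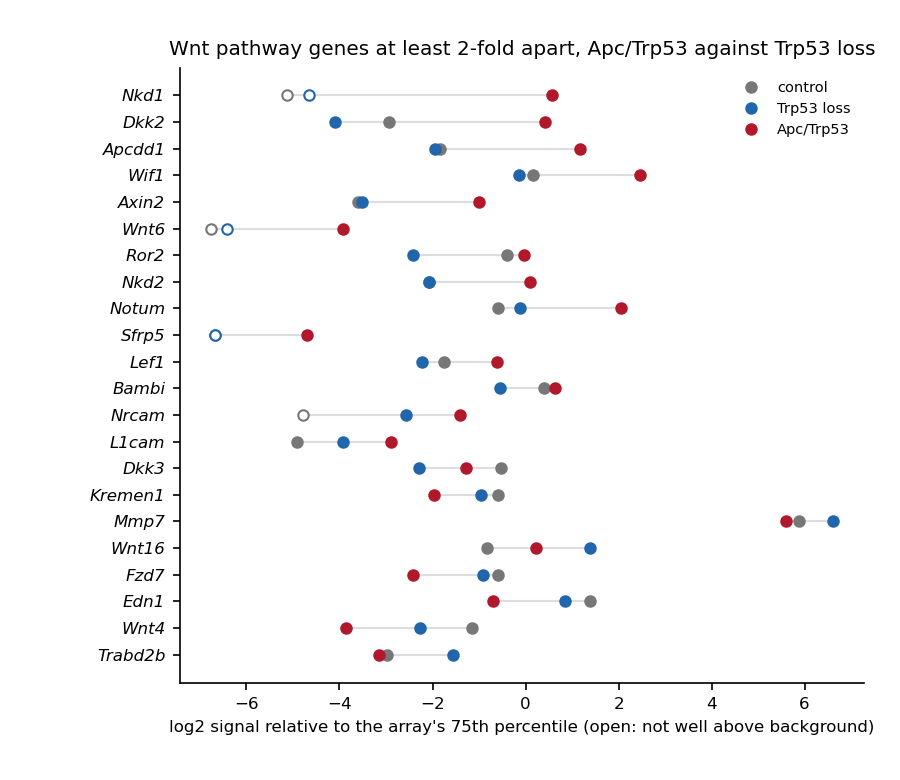
Log2 signal relative to the array's 75th percentile (horizontal axis) of every gene of the 4 Wnt lists at least 2-fold apart between Apc/Trp53 and Trp53 loss, on the control, Trp53 loss and Apc/Trp53 arrays. Open circles are signals not well above background. For Nkd1, Apcdd1, Wif1, Axin2, Nkd2 and Notum the control and Trp53 loss points lie close together, with Apc/Trp53 to their right.

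Wnt-responsive genes other than feedback inhibitors were mostly within 2-fold. Of 29 measured 4 were higher by 2-fold or more and 3 lower, and the median was 0.09. The TCF-family factor gene Lef1 was at -0.61 in Apc/Trp53, -2.22 in Trp53 loss and -1.76 in control, 3.05-fold above Trp53 loss. The other higher members were Bambi (2.29-fold), a decoy receptor of TGF-beta family ligands, and the adhesion molecule genes Nrcam (2.24-fold) and L1cam (at least 1.71-fold). Against control Bambi was 1.18-fold higher, and Nrcam and L1cam were higher by more than 2-fold. Lgr5, the R-spondin receptor and stem cell marker, was at 2.07 in Apc/Trp53, 1.26 in Trp53 loss and -2.94 in control. Both mutant cultures were high for Lgr5 and differed by 1.75-fold, while Apc/Trp53 stood 32.2-fold above control. Of the 29 differences 15 were positive and 14 negative. Widely used targets, named here after their values were seen, lay within 2-fold in both directions, with Sp5, Ascl2 and Myc 1.39-fold, 1.4-fold and 1.35-fold higher and Ccnd1, Ephb2 and Sox9 1.23-fold, 1.33-fold and 1.65-fold lower than in Trp53 loss. The lower members were Edn1 (2.93-fold), the gene of endothelin-1, the Wnt receptor gene Fzd7 (2.85-fold) and the metalloproteinase gene Mmp7 (2.02-fold).

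Ligands, receptors and R-spondins gave 2 higher and 2 lower of 27 measured, with a median of -0.04. These counts were near the shares over all genes, 5.36% higher and 5.26% lower. Ror2, a receptor for Wnt5a, was at -0.03 in Apc/Trp53, -2.42 in Trp53 loss and -0.41 in control, 5.23-fold above Trp53 loss but 1.3-fold above control. Of Apc/Trp53, Trp53 loss and control, Trp53 loss was the low array for Ror2. The culture with Pik3caH1047R and Trp53 loss before inoculation was lower still, at -3.36. Wnt6 was at least 1.57-fold higher and near the background limit. Wnt4 was at -3.85, -2.27 and -1.16, 3.0-fold below Trp53 loss, and Apc/Trp53 was the lowest array. Wnt16 was at 0.23, 1.39 and -0.82, so that it was 2.23-fold below Trp53 loss and 2.08-fold above control. None of the 31 measured genes of the destruction complex, beta-catenin and its nuclear partners differed by 2-fold. The widest of them was the co-repressor gene Tle1, 1.96-fold higher.

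The sequences upstream of these genes were read from RefSeq promoters of the mouse build GRCm38.p6, as the 250 bases before each start on the gene's strand, because the feedback genes stood together. The words searched, on both strands, were the TCF/LEF core words CTTTGAA or else CTTTGAT, with the further forms CTTTGTA and finally CTTTGTT. Of the 15 members of the Wnt lists at least 2-fold higher 11 had a promoter in the table, with 15 windows, and 1 window held a word (a Lef1 start). Nkd1 and Dkk2 are shown as the members of the feedback list with the widest differences, 1 of the 4 Lef1 starts as the only window with a word, and Sp5, chosen after its values were seen, as a Wnt target with 2 words whose signal was within 2-fold. Capitals mark the words found.
Nkd1, chr8:88527383-88527632, plus strand: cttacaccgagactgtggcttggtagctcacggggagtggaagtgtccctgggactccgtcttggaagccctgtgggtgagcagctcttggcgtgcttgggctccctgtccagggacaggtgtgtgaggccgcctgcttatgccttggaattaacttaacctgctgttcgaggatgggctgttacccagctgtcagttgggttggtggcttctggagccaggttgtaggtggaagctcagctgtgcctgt
Dkk2, chr3:132085042-132085291, plus strand: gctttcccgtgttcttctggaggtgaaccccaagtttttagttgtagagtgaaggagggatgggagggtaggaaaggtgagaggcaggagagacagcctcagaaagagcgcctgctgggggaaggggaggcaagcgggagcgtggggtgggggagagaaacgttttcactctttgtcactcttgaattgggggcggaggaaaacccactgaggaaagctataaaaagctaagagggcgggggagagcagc
Lef1, start number 4, chr3:131156044-131156293, plus strand: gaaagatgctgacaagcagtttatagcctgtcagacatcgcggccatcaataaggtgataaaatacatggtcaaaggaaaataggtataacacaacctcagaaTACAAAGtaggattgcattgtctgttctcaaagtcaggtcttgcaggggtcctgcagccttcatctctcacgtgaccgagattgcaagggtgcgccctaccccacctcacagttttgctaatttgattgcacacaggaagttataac
Sp5, chr2:70474673-70474922, plus strand: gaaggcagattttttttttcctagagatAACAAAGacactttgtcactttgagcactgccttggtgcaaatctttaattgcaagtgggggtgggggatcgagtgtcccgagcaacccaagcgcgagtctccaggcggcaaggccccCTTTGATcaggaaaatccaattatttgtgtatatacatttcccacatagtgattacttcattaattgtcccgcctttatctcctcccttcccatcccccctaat

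The word in the Lef1 window lies on the minus strand and begins at position -147 relative to the start. The windows of Axin2 and Wif1 held none either. Of all 32851 windows kept 14.8% held a word, and of the windows of measured genes 11.2%. The share was 13.6% for genes at least 2-fold higher and 16.6% for genes at least 2-fold lower. The AP-1 word TGANTCA was in 5.03% of the windows of measured genes, 7.77% of the higher and 9.59% of the lower ones. The TEAD word ACATTCC was in 2.61%, 3.81% and 3.73%. These are letter matches in a short window, and a missing match says only that the letters are not there.

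Control was set beside the pair to describe where its single array lay for the genes that differed. Of the 775 higher genes 490 (63.2%) were also at least 2-fold above control, 252 (32.5%) lay within 2-fold of control and 33 (4.26%) were at least 2-fold below it. Apc/Trp53 therefore exceeded both references for 3.39% of the 14463 genes. Of the 761 lower genes 351 (46.1%) were also at least 2-fold below control, 362 (47.6%) lay within 2-fold of it and 48 (6.31%) were at least 2-fold above it, so that 2.43% of all genes were below both. Directly against control, 1192 genes were higher and 1399 were lower. Both comparisons share the Apc/Trp53 array, so a common direction is in part built in and these shares are a description only.

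The largest differences among genes well above background on both arrays were not confined to Wnt genes. Ecrg4, which encodes a secreted peptide precursor, was at 1.61 in Apc/Trp53, -4.17 in Trp53 loss and -5.30 in control, 54.9-fold above Trp53 loss. Col8a1, a short-chain collagen, was at 0.39, -4.37 and -0.33, 27.2-fold above Trp53 loss but 1.65-fold above control. The growth factor gene Fgf3 was at -0.05, -4.79 and -6.22, at least 12.2-fold above Trp53 loss because 1 of its 2 probes was dim there. Of these 3 arrays Apc/Trp53 was therefore the high one for Ecrg4 and Fgf3, while for Col8a1 the Trp53 loss array was the low one. Krt23, an epithelial keratin, was 21.2-fold higher than in Trp53 loss and 14.2-fold higher than in control. Mitf, the transcription factor of pigment cells and osteoclasts, was at least 8.25-fold higher than Trp53 loss over 3 probes. Others of the 15 largest were Prr18 (at least 15.1-fold), Tent5c (20.3-fold), Tiam2 (18.9-fold), Bpifb5 (13.9-fold) and the ribonuclease gene Rnase1 (13.6-fold).

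Several genes were well above background on the Apc/Trp53 array and on neither reference. The serine protease gene Prss29, known from the secretory epithelium of the pregnant uterus, was at 2.55 in Apc/Trp53, -6.18 in Trp53 loss and -6.00 in control, at least 139-fold above Trp53 loss. Prss29 and Prss28 are close relatives, and cross-hybridisation between them was not tested. The calcium-binding protein gene Pvalb was at least 27.2-fold higher, the procollagen protease enhancer gene Pcolce2 at least 23-fold, the neurotensin receptor gene Ntsr2 at least 19.3-fold and Rnf138rt1 at least 112-fold. Calca, the gene of calcitonin and CGRP, was at least 12.9-fold higher, Gm12888 at least 8.08-fold and the growth factor gene Igf1 at least 6.47-fold. These 8 genes were dim in both Trp53 loss and control. The culture with Pik3caH1047R and Trp53 loss before inoculation was well above background for Pcolce2 (-3.06), Gm12888 (-2.57) and Igf1 (-3.05). It was dim for Prss29, Pvalb, Ntsr2, Rnf138rt1 and Calca.

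Among the lower genes Clu, the secreted chaperone clusterin, was at 3.18 in Apc/Trp53, 6.52 in Trp53 loss and 7.33 in control, 10.1-fold below Trp53 loss and 17.7-fold below control. Gm41666 was at -4.64, 1.1 and 0.71, 53.4-fold below Trp53 loss. The platelet chemokine gene Ppbp was at -2.62, 0.68 and 2.01, 9.87-fold below Trp53 loss. For these 3 genes Apc/Trp53 was the lowest of the 3 arrays, and for Ppbp the references themselves lay apart. Ppbp was also low, at -3.41, in the culture with Pik3caH1047R and Trp53 loss before inoculation. Lta, the gene of lymphotoxin alpha, was 32.1-fold below Trp53 loss and 5.51-fold below control. Inmt, a methyltransferase gene, was at -2.96, 0.54 and -4.86. For Inmt the Trp53 loss array was the high one, with Apc/Trp53 at 3.73-fold above control.

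**Figure D3:**
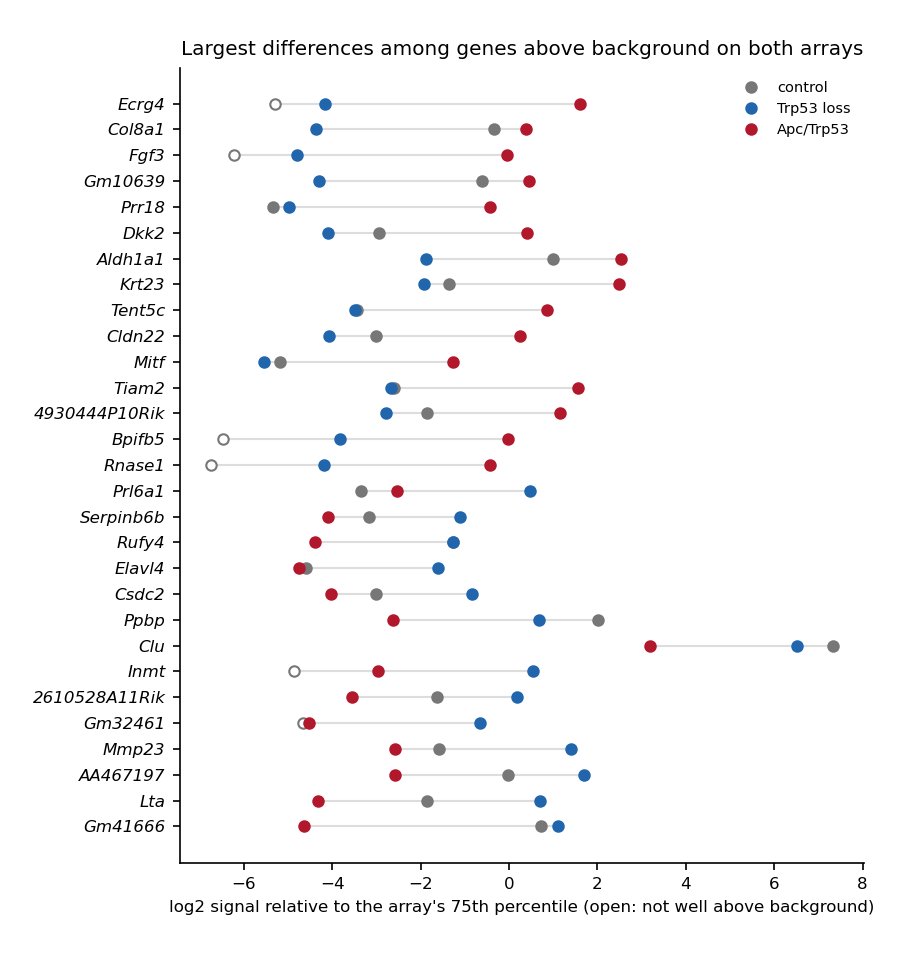
Log2 signal relative to the array's 75th percentile (horizontal axis) of the genes with the largest differences each way between Apc/Trp53 and Trp53 loss, among genes well above background on both, with control beside them. Open circles are signals not well above background. Of the 3 arrays shown, Apc/Trp53 is the lowest for Clu, Ppbp, Rufy4 and Gm41666, and Trp53 loss is the highest for Inmt, Elavl4 and Gm32461. The 2 probes of Elavl4 disagreed, with an SD of 4.18 between their log2 differences.

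Genes not well above background in Apc/Trp53 but measured in Trp53 loss included the transcription factor gene Wt1, at least 27.3-fold lower. Wt1 was at -7.01 in Apc/Trp53, -0.11 in Trp53 loss and -6.51 in control, so that only Trp53 loss of the 3 arrays was high. The culture with Pik3caH1047R and Trp53 loss before inoculation was high for Wt1 as well, at 1.72. Gata6, a zinc-finger transcription factor gene, was at -7.06, -1.40 and -2.45 and at least 11.2-fold lower, with both references above background. The collagenase gene Mmp13 was at least 5.03-fold lower, Scara3 at least 7.25-fold, Krt26 at least 17.6-fold and Bmp6 at least 3.04-fold, each above background in both references. Cyp2c68 and Gm5099 were at -0.06 in Trp53 loss and at least 28.2-fold lower in Apc/Trp53, and each was dim in control. Their levels were alike on the 3 arrays, and whether their probes detect 1 transcript was not tested.

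Targets of YAP and TEAD, which respond to the Hippo pathway and to mechanical cues, were lower as a list. Of 25 measured 10 were lower by 2-fold or more and 1 higher, 21 had a negative difference and the median was -0.59, and against control the median was -0.86. Over all genes 5.26% were lower and 5.36% higher. Ccn2, a matricellular protein gene, was at 4.36 in Apc/Trp53, 6.44 in Trp53 loss and 6.77 in control, 4.20-fold below Trp53 loss. Nt5e, the ecto-enzyme CD73, was at 1.15, 3.19 and 4.04, a 4.10-fold difference. For both genes Apc/Trp53 was the lowest of the 3 arrays. Fjx1 was the higher member, 3.05-fold. Integrins and laminins, which hold epithelium to the basement membrane, gave 3 lower and 0 higher of 22, with 18 negative differences and a median of -0.54. Lamb1 was 3.26-fold lower, Itgb6 2.71-fold and Itga2 2.23-fold, and the median of this list against control was -0.86.

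Lists of growth factor signalling pointed the same way in part. ERK pathway output and feedback genes gave 4 lower and 0 higher of 23, with 21 negative differences and a median of -0.51. Beside this and the following lists, 5.26% of all genes were lower and 5.36% higher. Egr2 was at least 2.55-fold lower, the ETS factor gene Etv1 3.32-fold, the ERK phosphatase gene Dusp6 2.22-fold and Egr1 2.21-fold. Dusp6 was at 2.63 in Apc/Trp53, 3.78 in Trp53 loss and 2.72 in control, so Trp53 loss was the array apart. AP-1 and immediate early genes gave 5 lower and 0 higher of 22, and Junb was 2.68-fold lower. Egr1 and Egr2 belong to both the ERK list and the AP-1 list and are counted as lower in each. The EGF receptor family and ligands gave 3 lower and 0 higher of 13. These were the ligand gene Hbegf (2.75-fold), the receptor gene Egfr (2.38-fold over 3 probes) and the feedback inhibitor gene Errfi1 (2.27-fold), and each was lower than control as well. The Egfr probes disagreed, with an SD of 0.80 between their log2 differences. FGF ligands and receptors gave 1 lower of 10, with a median of -0.01.

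Hypoxia and glycolysis genes gave 32 negative differences among 35, with 5 at least 2-fold lower, 2 higher and a median of -0.43, but against control the median was -0.04. The prolyl hydroxylase gene Egln3 was 2.65-fold lower and Car9 2.51-fold. Kdm3a, a histone demethylase gene induced by hypoxia, ran the other way at 2.83 in Apc/Trp53, -0.34 in Trp53 loss and 2.31 in control, with Trp53 loss as the low array. Interferon response genes gave 8 higher and 1 lower of 35, with 29 positive differences and a median of 0.58. Oas2 was 3.87-fold higher, Cxcl10 2.86-fold, Iigp1 2.84-fold and Isg15 2.44-fold, and the median against control was 0.14. Chemokines and cytokines gave 7 lower and 2 higher of 29. They were led by Csf2 (5.31-fold lower), Il34 (4.99-fold lower) and Il33 (at least 4.07-fold lower), and by Cxcl15 (4.32-fold higher). Cxcl15 was 1.48-fold above control, and Csf2, Il34 and Il33 were below control too.

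Proliferation genes shifted little but almost all in 1 direction. All 29 DNA replication and S phase genes had a positive difference, from 0.02 to 1.04 with a median of 0.31, and 1 (E2f2) reached 2-fold. Of 30 mitosis and spindle genes 28 had a positive difference, with a median of 0.34, and 1 (Mad2l1, 2.05-fold) reached 2-fold. The 2 Mad2l1 probes disagreed, with an SD of 0.93 between their log2 differences, and Mad2l1 was 1.24-fold below control. Against control the mitosis list had 15 higher, 0 lower and a median of 1.00. The cyclin-dependent kinase inhibitor Cdkn1a was at -1.35 in Apc/Trp53, -3.31 in Trp53 loss and 2.46 in control, at least 1.83-fold above Trp53 loss and 14.0-fold below control. The 2 Cdkn1a probes disagreed, with an SD of 0.99 between their log2 differences. p53 target genes gave 3 higher and 0 lower of 37 with a median of 0.12. Against control, where 8.17% of all genes were higher and 9.58% lower, they gave 0 higher and 19 lower with a median of -1.01. Besides Cdkn1a, the p53 target genes higher than in Trp53 loss were Ak1 (3.80-fold) and Eda2r, which was near the limit and has no fold bound. Trp53 itself differed between the 2 cultures as given above, and its part in these values was not tested.

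Products of the oviduct's secretory cells were mixed. Of 27 measured 5 were higher by 2-fold or more and 2 lower, with a median of -0.07. Besides Prss29, the homeobox gene Msx1 was at 3.92 in Apc/Trp53, 1.27 in Trp53 loss and 2.43 in control, 6.27-fold above Trp53 loss. Lypd2 was 4.95-fold higher. Wt1 was 1 of the lower members and the plasma glutathione peroxidase gene Gpx3 the other, at 0.24, 2.09 and -1.98, which is 3.60-fold below Trp53 loss and 4.67-fold above control. Regulators of multiciliated cell fate gave 1 higher (Myb, at least 4.28-fold) and 1 lower of 14, near the 5.36% and 5.26% over all genes. The lower one was the master regulator gene Foxj1, at -2.62 in Apc/Trp53, -1.52 in Trp53 loss and 0.08 in control. Axoneme genes gave 3 higher and 2 lower of 19, and the higher ones (Cfap44, Hydin and Ccdc39) were dim in Trp53 loss, with bounds of 2.07-fold, 1.51-fold and 1.22-fold. Against control 10 of the 19 axoneme genes were lower and the median was -1.20, where 9.58% of all genes were lower.

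Markers of other epithelia diverged from each other. Squamous and basal markers gave 7 higher and 3 lower of 24, with a median of 0.29 that was -0.03 against control. Lor, the gene of the cornified envelope protein loricrin, was at 2.15 in Apc/Trp53, -1.12 in Trp53 loss and 0.70 in control, 9.62-fold above Trp53 loss. The basal keratin gene Krt5 was at least 3.01-fold higher and was dim in both references. Sprr1a, another envelope precursor, was 5.64-fold lower and Scel 4.51-fold lower, both below control too. Gastrointestinal-type markers gave 5 lower and 1 higher of 18. Krt20 was at -1.30, 1.27 and 2.55, 5.96-fold below Trp53 loss and 14.4-fold below control, and the mucin gene Muc13 was at least 2.80-fold lower. The higher one was the protease gene Ctse, 4.89-fold, at a level within 1.06-fold of control. Mammary-type genes gave 5 lower and 0 higher of 13, among them the milk protein gene Csn2 (at least 5.33-fold), Xdh (5.80-fold) and the iron-sequestering Lcn2 (2.78-fold).

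Stem cell and retinoid genes included some of the widest differences. Aldh1a1, a retinaldehyde dehydrogenase and stem cell marker gene, was at 2.54 in Apc/Trp53, -1.89 in Trp53 loss and 1.00 in control, 21.5-fold above Trp53 loss and 2.89-fold above control. Smoc2, a matricellular gene of Lgr5-positive intestinal stem cells, was at -0.91, -5.95 and -5.13, at least 12.7-fold above Trp53 loss over 2 probes. Apc/Trp53 was the high array for both genes, although Trp53 loss was far below control for Aldh1a1. Over the stem list 2 were higher and 3 lower of 16, with a median of -0.05. Retinoid genes gave 4 higher and 2 lower of 20. Dhrs3, a retinaldehyde reductase gene, was at -1.87, 0.18 and 3.33, lowest in Apc/Trp53 and 36.8-fold below control.

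Notch genes gave 5 higher and 0 lower of 16, with a median of 0.18, beside 5.36% higher and 5.26% lower over all genes. The target gene Hey1 was at 0.22 in Apc/Trp53, -1.40 in Trp53 loss and -1.19 in control, 3.06-fold above Trp53 loss. The Fringe glycosyltransferase genes Mfng and Lfng were at least 2.78-fold and 2.43-fold higher. TGF-beta and BMP genes gave 4 higher and 6 lower of 33. Bmp2 was at least 3.68-fold higher, whereas Ltbp2, a TGF-beta binding matrix protein gene, was at -0.29, 1.66 and 2.54, 3.85-fold lower and with Apc/Trp53 the lowest. IGF genes gave 4 higher and 2 lower of 15, including Igf1 as above. Also among them were Igfbp2 (at least 2.45-fold higher, 1.24-fold above control), Igfbp4 (2.94-fold higher, equal to control) and Igfbp3 (2.44-fold lower).

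Matrix and detoxification genes were split. Collagens gave 4 higher and 2 lower of 13, with Col6a2 at least 14.4-fold lower. Proteases and their inhibitors gave 2 higher and 5 lower of 19. Serpine2 was at -0.14 in Apc/Trp53, -3.73 in Trp53 loss and 1.56 in control, 12.0-fold above Trp53 loss but 3.24-fold below control. Glutathione and NRF2 genes gave 4 higher and 4 lower of 31. The glutathione transferase genes Gsta2 and Gstm5 were 9.40-fold and 4.11-fold higher and Gstt1 was 3.05-fold lower. Against control Gsta2 was 1.63-fold, Gstm5 7.14-fold and Gstt1 2.89-fold higher. Genes of such families are alike in sequence, and their probes may share signal. Kidney and urothelium genes gave 3 higher and 3 lower of 13. Umod, the gene of uromodulin, was at 4.98, 2.86 and -1.60, 4.34-fold above Trp53 loss and 95.6-fold above control, so both mutant cultures were high.

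Some endothelial genes were among the higher ones. Of 9 measured 4 were at least 2-fold higher and 1 lower, with a median of 0.96 that was 0.59 once dim signals were set to the background limit and -0.27 against control. Kdr, a VEGF receptor gene, was at 0.20 in Apc/Trp53, -2.88 in Trp53 loss and -2.20 in control by 1 of its 2 probes, 8.46-fold above Trp53 loss. The other probe cleared background in neither Apc/Trp53 nor Trp53 loss. With both probes averaged, Kdr was at -3.40 in Apc/Trp53, -4.76 in Trp53 loss and -4.34 in control. The cadherin gene Cdh5 was 3.85-fold higher and Vwf 2.84-fold, while the VEGF receptor gene Flt1 was at least 4.76-fold lower. Of 4 defining endothelial markers 2 were well above background in Trp53 loss and 3 in each of control and Apc/Trp53, with summed signals of -1.66 in control, -1.80 in Trp53 loss and -0.12 in Apc/Trp53. Tek was not well above background on any of the 3 arrays and Pecam1 lay near the limit. The part of endothelial cells in the result was not tested. Leukocyte genes gave 0 higher and 1 lower of 8 (Cd68, 3.02-fold), and mesothelial genes 0 higher and 2 lower of 5 (Wt1 and Upk3b).

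**Figure D4:**
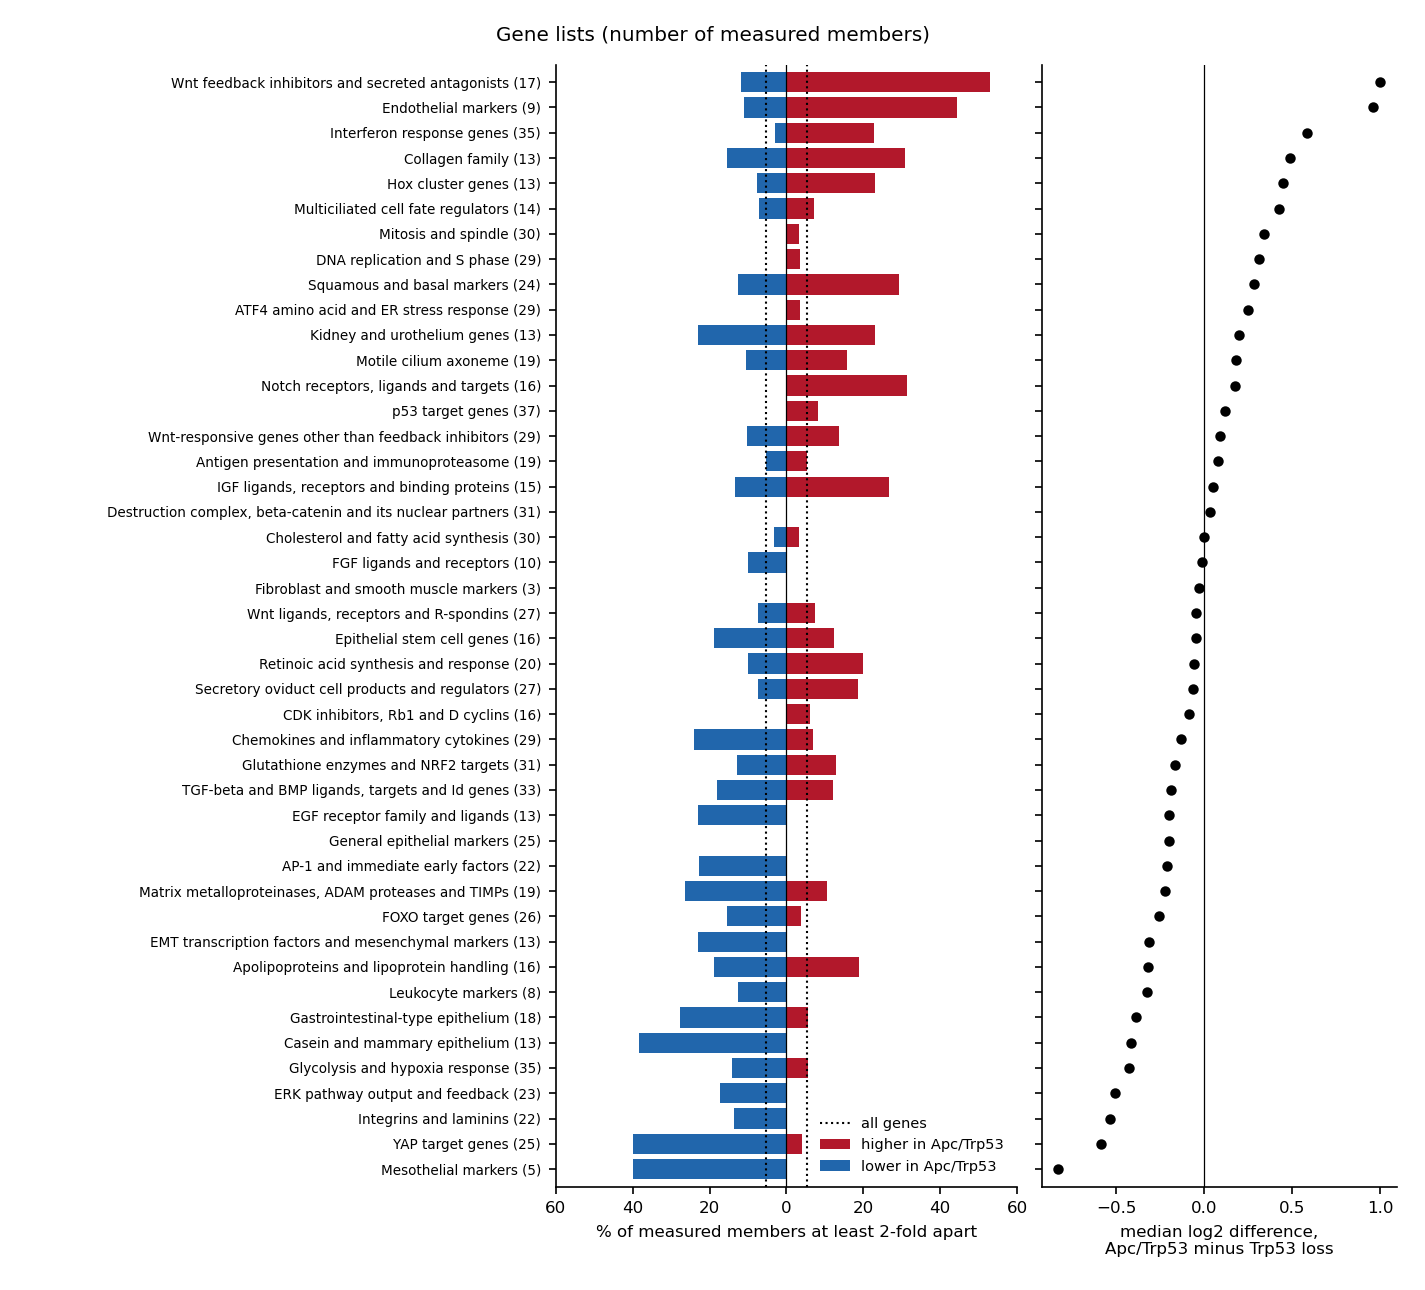
Share of the measured members of each of 44 gene lists that were at least 2-fold higher (to the right) or lower (to the left) in Apc/Trp53 than in Trp53 loss, in percent, and on the right the median log2 difference of each list. Dotted lines mark 5.36% and 5.26%, the shares over all genes; the Wnt feedback list has the highest median, 1.00, and lists of under 10 genes are thinly filled.

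Lists near the background included cholesterol and fatty acid synthesis (1 higher and 1 lower of 30), antigen presentation (1 and 1 of 19) and general epithelial markers (0 and 0 of 25, median -0.20). By chromosome, the median difference lay between -0.03 and 0.08 on each of the 20 chromosomes with enough genes, which held from 319 to 1153 genes. The Pik3caH1047R and Trp53 loss culture was set against the same Trp53 loss array over the same 14463 genes, of which 8.28% were higher by 2-fold or more, 8.19% were lower and the median was 0.04. It gave 5 higher and 2 lower of the 17 measured Wnt feedback genes with a median of 0.53, beside 1.00 in Apc/Trp53. Its YAP target median was -0.62 beside -0.59, its ERK output median -1.06 beside -0.51, its interferon median 2.39 beside 0.58 and its mitosis median 1.66 beside 0.34. The comparisons share the Trp53 loss array, and the differences between them were not tested. In the organoids recovered from the Apc/Trp53 lesion after inoculation, Nkd1 stood at 4.95, Wif1 at 6.41, Apcdd1 at 3.66 and Dkk2 at 2.36, each above its level in the culture before inoculation.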

How the data were processed

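Per the labels' protocols, total RNA of each culture was extracted with RNeasy columns, labelled with Cy3 and hybridised to 1 one-colour array. The deposited scanner files hold processed intensity, already background-subtracted by Agilent Feature Extraction 11.0.1.1 per the file headers. The arrays were not scaled to each other in them. A smaller deposited matrix gives 2047 probes on a log2 scale, 1459 of them named here. No source used here states its scaling, centring or choice of probes, and it served as an alternative.

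From these, control spots and those the scanner marked as outliers were dropped, processed intensities were put on a log2 scale, the 75th percentile over all kept spots of the array was subtracted, and spots of a probe were averaged. No spot was saturated. Probes were named by unversioned accession through RefSeq (34566 of 56605), and genes were summarised by the mean of those of their probes that cleared background on either array of a comparison. For a probe dim on 1 array, the bound replaces its signal by the lowest signal that cleared background there. Levels are not compared between genes. The number of arrays limits the precision.

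The text names 15 genes each way well above background on both arrays, 6 each way on 1 array, the Wnt list members at least 2-fold apart, up to 4 members of every other list, 10 genes each way beyond both references, and hub genes. Some genes that this rule picks are not reported here. Members and lists were chosen with earlier results of these data known. There were 9 alternatives. The normexp alternative (limma, offset of 50) took the median spot signal where the plan named the mean, which the spot tables read here do not list. Steps were tested on simulated data. Python 3.11.15, numpy 2.4.6, pandas 2.3.3, matplotlib 3.10.9, R 4.3.3, limma 3.58.1 and data.table (release 1.17.8) were used.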

Additional observations from a re-analysis of the deposited data

Results flagged for a closer look

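Signal also appeared in probes that could not be given a gene name and so entered no comparison. Of 7531 such probes well above background on the Apc/Trp53 array, 191 (2.54%) were at least 2-fold above both the Trp53 loss and the control arrays. They are given as a count, and what they detect was not tested.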

How the results depend on the processing

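No paired analysis was possible because each group has 1 array, and for the same reason no replicate could be left out. Counts of higher and lower genes stayed within 1.5 times of 775 and 761 under scaling by the array median (871 and 690, with the higher genes at 55.8% of calls in place of 50.5%), quantile normalization, the brightest probe per gene and dim signals raised to the limit. They were 241 and 257 with normexp background correction, 412 and 462 among genes above background on both arrays, 1192 and 1399 with control as the reference, and 158 and 223 in the deposited table of fewer genes, and lower genes numbered 1244 with no filter on dim probes. The causes were not tested, except that fewer genes enter the deposited table and the arrays' common set. Wnt feedback genes at least 2-fold higher were 9, and 2 in the deposited table. Other Wnt-responsive genes were 4, and 2 with normexp, 2 in the deposited table and 8 against control. Of the 177 named genes at least 2-fold apart, all kept their sign under median scaling, quantile normalization, normexp, no filter and the brightest probe, and 174, 175, 120, 165 and 169 of them stayed at least 2-fold apart. With dim signals raised, Eda2r turned to -0.079 and Sfrp5 to -0.13. List medians that turned without the filter were those of Wnt feedback (-0.22), multiciliated regulators (-0.041), Hox (-0.29) and collagen genes (-0.29). The median over all genes was -0.17 in that setting. Those that turned in the deposited table were EMT (0.77) and collagen (-0.42), and against control squamous (-0.029), collagen (-0.96), apolipoprotein (0.54) and endothelial genes (-0.27). Over the 12 collagen genes measured in both comparisons the median against control was 0.11 and did not turn. The comparisons with Trp53 loss and with control share the Apc/Trp53 array, and some named genes were picked for lying beyond both references. Against control 148 of 169 named genes kept their sign, which was thus in part fixed beforehand. Those that turned were Ak1 (-0.42), Aldh1a2 (1.95), Apoe (1.89), Aqp1 (1.1), Cdkn1a (-3.80), Dkk3 (-0.76), Eda2r (-4.07), Elavl4 (0.10), Fgfr4 (1.38), Gm32461 (0.13), Gpx3 (2.22), Gstt1 (1.53), Hoxb8 (1.77), Hoxd9 (-0.019), Inmt (1.90), Mad2l1 (-0.31), Pdk4 (0.0098), Prl6a1 (0.81), Serpine2 (-1.70), Trp53 (-4.46) and Wnt16 (1.06). Signal over background limits genes dim on 1 array to a bound.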

Other observations

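In the organoids recovered from the Apc/Trp53 lesion after inoculation, set against the Apc/Trp53 culture before it, genes of chromosome 13 had a median difference of -0.75, while the medians of the other chromosomes lay between -0.11 and 0.01. Between Apc/Trp53 and Trp53 loss no chromosome had a median beyond -0.03 or 0.08.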
